A study of Mus musculus with 2 samples.

Results

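The collagen genes were examined as 1 family in a map of Foxf2 binding in the embryonic mouse palate. Members were the protein-coding genes of GENCODE vM1 whose symbol reads Col, a number, a, a number. This rule found 43 of 22359 genes, in 4 structural classes: 11 fibrillar, 6 basement membrane, 9 FACIT (fibril-associated collagens with interrupted triple helices) and 17 other genes. Collagen XXVI, annotated as Emid2, did not match the rule.

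The map came from chromatin immunoprecipitation and sequencing (ChIP-seq) of palatal shelves, the outgrowths of the upper jaw that become the palate, taken at E13.5 (embryonic day). All embryos were Foxf2 FLAG/FLAG, that is, homozygous for endogenous Foxf2 carrying a 3xFLAG epitope tag made by CRISPR/Cas9 editing, and chromatin was drawn down with an anti-FLAG antibody. Shelves of 50 pairs went into 1 ChIP library of 26849463 tags (aligned reads), compared with 1 input library, chromatin sequenced without the antibody, whose depth followed from the deposited values as about 19230000 tags. Per the labels, every library was from tagged embryos, and no ChIP from untagged tissue was analysed here. There was no replicate, so no difference below has a replicate check and none was tested. The file holds binding, not expression, so the tissue could not be checked against marker genes, and binding in few cells cannot be told apart from weak binding in many.

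Collagens are secreted proteins in which α chains wind into a triple helix. Fibrillar collagens assemble into the banded fibrils that carry tension in mesenchyme, bone and cartilage; type IV collagens form the sheet-like network of basement membranes; FACITs decorate fibrils and do not form them. The other class holds microfibrillar type VI, anchoring fibril type VII, short-chain network, transmembrane and endostatin-bearing multiplexin collagens. Foxf2 belongs to the forkhead family and acts in the mesenchyme of the palate, and mesenchymal cells are the main makers of fibrillar collagen. Forkhead proteins bind sites of the kind GTAAACA.

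A peak, a region called by the authors against input, was counted for a gene when its centre lay inside the gene or when the gene had the nearest transcription start site (TSS) within 100 kb. By this count 26 of the 43 collagen genes (60.5%) had at least 1 of the 9165 peaks, against 5351 of 22359 protein-coding genes (23.9%). Counting only centres inside the gene gave 24 collagen genes (55.8%), against 16.1% of all genes. Counting only nearest starts gave 25 (58.1%), against 22.0%. At least 3 peaks were counted for 7 collagen genes (16.3%), against 2.48% of all genes, and these shares were not matched for gene length. Col4a2 was among the 7, with 3 peaks of which 1 lay inside it. In all, 52 peaks were counted for collagen genes, and 2 of them were counted for both Col4a1 and Col4a2.

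The fibrillar class held more of these peaks than any other class. It had peaks at 10 of 11 genes (90.9%), 23 peaks in all. The basement membrane class had peaks at 3 of 6 genes (50.0%), 4 peaks in all. FACIT genes had peaks at 4 of 9 (44.4%), 6 in all, and the other class at 9 of 17 (52.9%), 19 in all. Each of the 4 class shares was above the 23.9% of all genes, a share not matched for gene length. No test of a difference between classes could be made from 1 ChIP library.

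**Figure D1:**
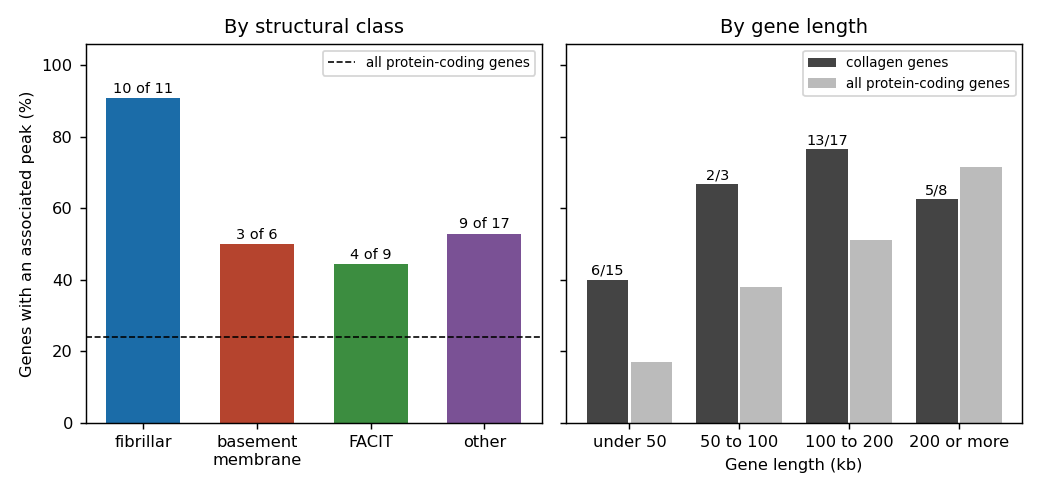
Percent of genes with a Foxf2-FLAG peak inside or nearest within 100 kb, by collagen class (left, dashed line for all protein-coding genes) and by gene length in kb (right, dark bars for collagens, grey for all protein-coding genes). The fibrillar bar reaches 10 of 11 genes, and collagens exceed all genes in each length band except that of 200 kb or more. Under 50 kb, 5 of the 6 collagens with a peak are fibrillar. Of the 9 non-fibrillar collagens of that length 1 had a peak (11.1%), below the 17.1% of all genes. The band of 50 to 100 kb holds 3 collagens.

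Collagen genes are long, and long genes more often held a peak. The median collagen gene spanned 114 kb, against 15.4 kb over all genes. Of genes shorter than 50 kb, 6 of 15 collagens had a peak (40%), against 17.1% of all genes. Between 50 and 100 kb the counts were 2 of 3 (66.7%, against 38.1%), and between 100 and 200 kb 13 of 17 (76.5%, against 51.2%). At 200 kb or more the order turned, with 5 of 8 collagens (62.5%) against 71.6% of all genes.

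The fibrillar class, with the highest share, had the lowest median gene length, 45.0 kb, against 136 kb for basement membrane, 75.1 kb for FACIT and 105 kb for other collagen genes. Per Mb of gene body, 15.3 peaks lay inside fibrillar genes (16 peaks, exact 95% Poisson interval 8.74 to 24.8). The value was 3.83 in basement membrane genes (1.04 to 9.80), 4.57 in FACIT genes (1.48 to 10.7) and 7.56 in other collagen genes (4.23 to 12.5). It was 4.96 over all protein-coding genes (4.82 to 5.10) and 3.45 over the genome. These intervals cover counting error only. Among collagens shorter than 50 kb, a split chosen after the values were seen, 5 of 6 fibrillar genes (83.3%) had a peak. Of the 9 non-fibrillar ones 1 did, Col6a1 (11.1%), against 17.1% of all genes shorter than 50 kb. At 50 kb or more, 5 of 5 fibrillar and 15 of 23 non-fibrillar collagen genes (65.2%) had one, against 48.7% of all genes of that length. The 23 were 3 of 6 basement membrane genes with a peak (50.0%, close to that 48.7%), 4 of 6 FACIT (66.7%) and 8 of 11 of the other class (72.7%).

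**Figure D2:**
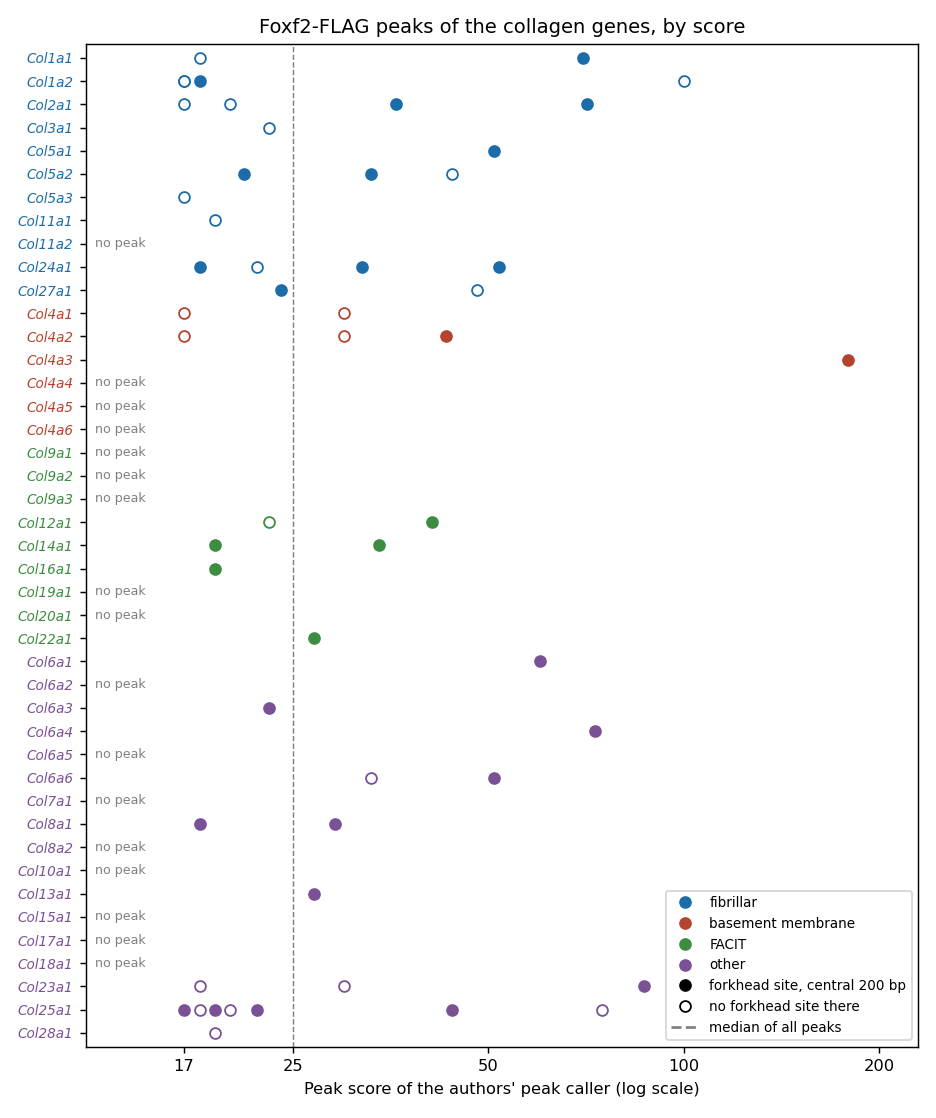
Score of each peak counted for each of the 43 collagen genes, on a log axis, coloured by class; filled circles have a forkhead site in the central 200 bp, open circles do not, and the dashed line marks the median of all peaks, 25. Col4a3 stands alone at 179, and the next is Col1a2 at 100.

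In strength, collagen peaks sat close to the middle of the list. Scores and folds are the authors' peak caller's own and are used here to describe peaks within this list. The median score was 25.5 over the 52 peaks and 25 over all 9165, with 26 above the list median. Of the 52, 8 (15.4%) were among the 920 highest-scoring peaks of the list. By class the median score was 23 for fibrillar, 36.5 for basement membrane, 25 for FACIT and 27 for other collagen peaks. The median collagen peak held 34.5 ChIP tags and a 12.2-fold excess over input, against 30 tags and 12.9-fold over all peaks. The caller required 10-fold, so folds were bunched just above that value: 42 of 52 were under 15-fold, and the range was 10.15 to 35.81. Of the 52, 16 rested on 20 or fewer ChIP tags, and 4 had no input tag.

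Type I collagen, the main fibril of mesenchyme and bone, is made from the chains of Col1a1 and Col1a2, and each gene had a strong peak upstream. The Col1a2 peak at chr6:4439193-4439947 (mm9, as for all positions here), 15.2 kb upstream of the gene, held 100 ChIP and 5 input tags. That was a 14.33-fold excess with an exact 95% interval of 5.94 to 45.1. With a score of 100 it ranked 170 in the list by score, and 682 by ChIP tags. The Col1a1 peak at chr11:94757832-94758590, 39.3 kb upstream, held 164 ChIP and 11 input tags, 10.68-fold (5.81 to 21.8), with a score of 70. It ranked 544 by score and 180 by ChIP tags. Inside the genes, by contrast, the peaks were weak: Col1a1 had 17 ChIP tags and 1 input tag in its first intron (score 18), and Col1a2 the same numbers in intron 32. The Col1a2 intron peak had GTAAACA in its central 200 bp. A further pair of Col1a2 peaks lay 86.0 and 87.0 kb upstream, each with a score of 17.

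Both upstream peaks of type I collagen carried GTAAACA. They are shown because they are the strongest peaks of the fibrillar class together with that of Col2a1. In each sequence here the plus strand of mm9 is written, and capitals mark every match on either strand to ATAAACA or GTAAACA, or to the variants ATAAATA or GTAAATA, so that TGTTTAC is GTAAACA on the minus strand. The Col1a1 window (chr11:94758111-94758310) is the central 200 bp and holds GTAAACA at 94758215-94758221 and 94758268-94758274, both on the minus strand. In the Col1a2 peak the only match lay 99 bp from the centre, across the edge of the central 200 bp, and was not counted as a central match. Its window (chr6:4439371-4439570) is therefore drawn around the site at 4439468-4439474.
Col1a1 upstream peak: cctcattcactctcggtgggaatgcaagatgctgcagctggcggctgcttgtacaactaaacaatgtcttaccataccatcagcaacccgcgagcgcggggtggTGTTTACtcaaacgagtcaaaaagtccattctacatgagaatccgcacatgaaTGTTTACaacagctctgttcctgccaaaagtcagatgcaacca
Col1a2 upstream peak: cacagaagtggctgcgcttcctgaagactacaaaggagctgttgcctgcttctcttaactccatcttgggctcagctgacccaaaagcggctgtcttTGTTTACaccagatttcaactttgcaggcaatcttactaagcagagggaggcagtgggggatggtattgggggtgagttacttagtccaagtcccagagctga

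Col2a1, the type II collagen chain of cartilage, had 4 peaks. The strongest lay 17.4 kb upstream at chr15:97852299-97852799, with 69 ChIP and 4 input tags, 12.36-fold (4.61 to 46.6), and a score of 71. Its forkhead match, ATAAACA at 97852543-97852549 on the minus strand, was 3 bp from the peak centre, the closest of the matches printed here. Introns 8 and 16 held peaks of 37 and 31 ChIP tags (scores 36 and 17), and that in intron 8 had GTAAACA in its central 200 bp. The fourth lay at the promoter, 0.1 kb upstream, with 20 ChIP tags and 1 input tag, a score of 20 and no forkhead match in the whole peak. The central 200 bp of the upstream peak was chr15:97852449-97852648.
Col2a1 upstream peak: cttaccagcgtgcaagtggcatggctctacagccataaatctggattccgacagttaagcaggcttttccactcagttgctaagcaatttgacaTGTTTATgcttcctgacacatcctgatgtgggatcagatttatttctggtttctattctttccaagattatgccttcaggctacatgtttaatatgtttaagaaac

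Type III and type V collagens co-assemble with type I in soft connective tissue. Col3a1 had 1 peak, in its first intron at chr1:45371722-45372222, with 22 ChIP tags and 1 input tag, 15.76-fold (2.55 to 650), and a score of 23. Col5a2, its close neighbour on chromosome 1, had 3. The strongest, in the first intron 0.8 kb from a start at chr1:45558879-45559379, held 42 ChIP tags and 1 input tag, 30.08-fold (5.11 to 1220), with a score of 44 and no forkhead match in the whole peak. The others were 14.5 kb inside the gene (score 21, GTAAACA) and 94.2 kb upstream (score 33, ATAAATA). The upper interval bounds show how little 1 input tag fixes a fold. Col5a1 had 1 peak in intron 4 with 51 ChIP and 3 input tags (score 51, GTAAACA), and Col5a3 1 peak in intron 31 with 18 ChIP tags and 1 input tag (score 17). The Col5a2 window at its start (chr1:45559029-45559228) is shown as a collagen promoter peak without a forkhead match.
Col5a2 promoter peak: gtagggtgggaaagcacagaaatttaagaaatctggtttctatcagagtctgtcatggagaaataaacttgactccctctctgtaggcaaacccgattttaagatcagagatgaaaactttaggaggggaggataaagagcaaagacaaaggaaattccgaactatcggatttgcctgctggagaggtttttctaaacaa

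The other fibrillar genes with peaks were Col11a1, Col24a1 and Col27a1. Col11a1, a chain of the type XI fibril that nucleates cartilage fibrils, had 1 peak in its first intron at chr3:113756190-113756690, with 50 ChIP and 3 input tags, 11.94-fold (3.86 to 59.8). Its score of 19 was low for that many tags. Col24a1 had 4 peaks, all intronic, with scores of 52, 32, 22 and 18. The strongest, in intron 37 at chr3:145126823-145127580, held 62 ChIP and 4 input tags, 11.1-fold (4.12 to 42.0), and ATAAACA in its central 200 bp. It and 2 of the others were nearest to the start of Znhit6, not of Col24a1. Col27a1 had a peak of score 48 in intron 24 (49 ChIP and 3 input tags), nearest to Orm1, and one of score 24 in intron 7. The latter held 24 ChIP tags and no input tag, which put its exact 95% lower limit at 4.31-fold. Col11a2, the remaining type XI chain gene, was the fibrillar gene without a peak, and the closest peak, of score 84 and assigned to Rxrb, lay 7.1 kb from it.

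**Figure D3:**
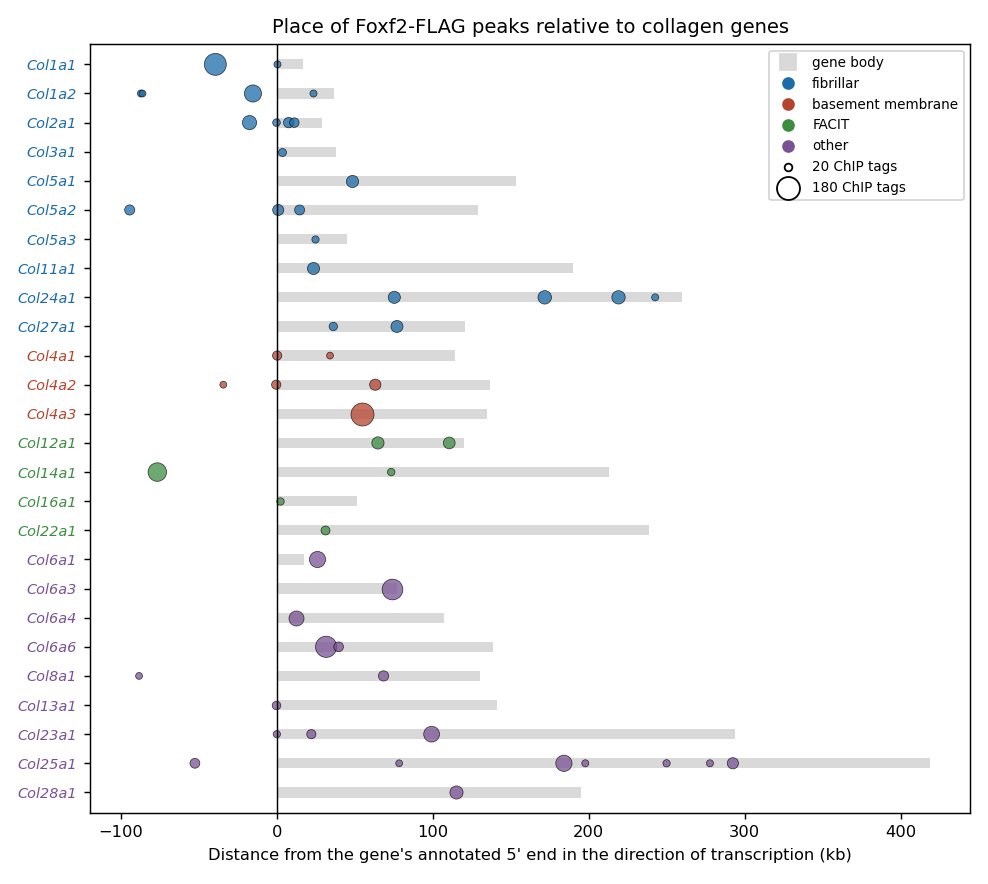
Place of each peak relative to the 26 collagen genes that had one; the x axis is distance in kb from the gene's annotated 5′ end in the direction of transcription, grey bars are gene bodies, circle area follows ChIP tags, and colour gives the class. The large circles of Col1a1, Col1a2 and Col2a1 lie upstream of their genes, and that of Col4a3 lies inside it.

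The strongest collagen peak was in Col4a3, a gene of the type IV network known from kidney and lung basement membranes. It lay in intron 2 of 51 at chr1:82638112-82638737, 54.9 kb from the start, with 180 ChIP and 11 input tags, 11.72-fold (6.40 to 23.9). Its score of 179 ranked 6 of 9165, and its tag number ranked 124. The peak held 5 forkhead matches, 2 of them in the central 200 bp (chr1:82638324-82638523): ATAAATA at 82638331-82638337 on the minus strand and GTAAACA at 82638393-82638399 on the plus strand. Col4a4, its head-to-head neighbour, had no peak, and the closest, of score 20, was 21.3 kb away.

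Col4a1 and Col4a2 encode the chains of the type IV network found in nearly all basement membranes, and they are transcribed in opposite directions from 1 promoter. That promoter had a peak at chr8:11312278-11312778, with 29 ChIP and 2 input tags, 10.39-fold (2.63 to 89.8), a score of 30, a GC content of 73.5% and no forkhead match. A stronger peak lay in intron 4 of Col4a2 at chr8:11375698-11376341, with 43 ChIP and 3 input tags, 10.27-fold (3.29 to 51.7), and a score of 43. Its central window (chr8:11375919-11376118) had ATAAACA at 11376022-11376028 on the minus strand, 6 bp from the centre. The first intron of Col4a1 held a peak of 16 ChIP tags (score 17). The central windows of the Col4a3 and Col4a2 intron peaks are shown as those with forkhead matches in the basement membrane class.
Col4a3 intron peak: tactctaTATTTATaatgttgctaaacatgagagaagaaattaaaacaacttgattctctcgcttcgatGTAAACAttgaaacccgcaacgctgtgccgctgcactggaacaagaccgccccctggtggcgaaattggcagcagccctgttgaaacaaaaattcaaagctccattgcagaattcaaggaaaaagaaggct
Col4a2 intron peak: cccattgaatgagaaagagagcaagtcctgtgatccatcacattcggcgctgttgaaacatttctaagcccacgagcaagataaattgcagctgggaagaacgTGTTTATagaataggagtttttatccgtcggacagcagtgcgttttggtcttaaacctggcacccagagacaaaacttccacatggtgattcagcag

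Col4a5 and Col4a6, the other head-to-head pair, had no peak, the closest being 683.4 and 522.8 kb away. Both are on the X chromosome, where the list had 195 peaks, 1.17 per Mb, against 3.45 over the genome.

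Among FACIT genes, Col12a1 and Col14a1, whose products coat type I fibrils, had the highest scores. The stronger Col12a1 peak lay in intron 60 of 65 at chr9:79455751-79456251, with 47 ChIP and 3 input tags, 11.22-fold (3.61 to 56.4), and a score of 41. A second, in intron 31, had 51 ChIP and 3 input tags but a score of 23. The Col14a1 peak at chr15:55062438-55063200 lay 76.5 kb upstream of the gene, within Deptor, with 117 ChIP and 7 input tags, 11.97-fold (5.63 to 30.4), and a score of 34. A weaker one was in intron 11 (19 ChIP tags, score 19). Col22a1 had a peak in intron 3 at chr15:71833233-71833733 with 27 ChIP tags and 1 input tag, 19.34-fold (3.19 to 792), and a score of 27. Col16a1 had one in intron 2 at chr4:129726842-129727342 with 19 ChIP tags and 1 input tag, 13.61-fold (2.16 to 565), and a score of 19. Of the 6 FACIT peaks, 5 had a forkhead match in the central 200 bp.

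The Col12a1 and Col14a1 windows, the highest-scoring of the class, have ATAAACA at chr9:79455946-79455952 on the minus strand and at chr15:55062788-55062794 on the plus strand. The windows are chr9:79455901-79456100 and chr15:55062719-55062918.
Col12a1 intron peak: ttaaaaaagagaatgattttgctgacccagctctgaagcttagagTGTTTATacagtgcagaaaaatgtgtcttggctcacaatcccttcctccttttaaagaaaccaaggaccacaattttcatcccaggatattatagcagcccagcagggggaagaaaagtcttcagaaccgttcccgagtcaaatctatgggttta
Col14a1 upstream peak: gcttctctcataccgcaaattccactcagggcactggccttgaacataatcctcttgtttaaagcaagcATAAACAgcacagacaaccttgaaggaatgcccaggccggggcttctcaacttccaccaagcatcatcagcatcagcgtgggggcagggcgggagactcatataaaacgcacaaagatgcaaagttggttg

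The 3 chain genes of type IX collagen, the FACIT of cartilage fibrils, had no peak. The closest were 110.7 kb from Col9a1, 138.7 kb from Col9a2 and 49.9 kb from Col9a3. Col19a1 and Col20a1 had none either, the closest being 195.0 and 261.8 kb away.

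Type VI collagen builds beaded microfibrils around mesenchymal cells. Peaks were counted at 4 of its 6 genes (66.7%), against 23.9% of all genes, a share not matched for gene length. The type VI peaks had a median score of 51. Col6a4 had the highest score, 73, in its first intron at chr9:105986139-105986896, with 77 ChIP and 2 input tags, 27.58-fold (7.38 to 232). Col6a1 followed at 60, with 89 ChIP and 4 input tags, 15.94-fold (6.01 to 59.8), at chr10:76162765-76163425, 8.4 kb beyond the end of the gene. Col6a6 had peaks of score 51 (153 ChIP and 8 input tags) and 33, in introns 1 and 2. Col6a3 had 146 ChIP and 9 input tags in intron 41 of 42, with a score of 23. Score and tags therefore ordered these genes differently: by tags Col6a6 and Col6a3 stood behind Col4a3 and Col1a1 alone among the 52 collagen peaks. Col6a2 and Col6a5 had no peak, the closest being 9.8 and 59.6 kb away.

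The transmembrane collagens, which are anchored in the cell surface, had peaks at 3 of 4 genes (75.0%), against 23.9% of all genes. The 3 are long, at 140.9 kb (Col13a1), 294.0 kb (Col23a1) and 419.0 kb (Col25a1). Of all protein-coding genes, 51.2% of those between 100 and 200 kb and 71.6% of those at 200 kb or more had a peak. Col23a1 had the highest score, 87, in intron 2 of 28 at chr11:51202456-51202956, with 85 ChIP and 6 input tags, 10.15-fold (4.47 to 28.4). It had 2 weaker peaks, in intron 1 (score 30) and at its first exon (score 18). Col25a1, the longest collagen gene at 419 kb, had the most peaks, 7. The strongest lay in intron 2 of 37 at chr3:130067706-130068206, with 90 ChIP and 6 input tags, 10.74-fold (4.75 to 30.1), and a score of 75, and the others scored 17 to 44. Col13a1 had 1 peak 0.3 kb upstream of its start, with 25 ChIP tags and no input tag, an exact 95% lower limit of 4.50-fold, and a score of 27. Col17a1, a hemidesmosome protein of epithelia, had none, the closest being 145.3 kb away.

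The Col23a1 and Col6a4 windows are shown as the highest-scoring of the other class that hold a forkhead match. Col23a1 (chr11:51202606-51202805) has GTAAACA at 51202626-51202632 on the minus strand. Col6a4 (chr9:105986417-105986616) has ATAAACA at 105986455-105986461 and 105986510-105986516, both on the plus strand.
Col23a1 intron peak: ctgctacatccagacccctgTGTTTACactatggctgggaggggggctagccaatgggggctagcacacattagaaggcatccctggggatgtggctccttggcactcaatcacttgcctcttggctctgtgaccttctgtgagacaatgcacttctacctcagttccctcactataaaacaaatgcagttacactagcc
Col6a4 intron peak: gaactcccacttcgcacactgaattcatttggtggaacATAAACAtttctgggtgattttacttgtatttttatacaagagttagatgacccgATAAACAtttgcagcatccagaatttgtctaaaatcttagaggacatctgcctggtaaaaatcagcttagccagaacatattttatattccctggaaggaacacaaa

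Of the remaining genes, Col8a1, a short-chain collagen, had 2 peaks with scores of 29 and 18, and Col28a1 had 1 with 59 ChIP tags and a score of 19. Col10a1, the collagen of hypertrophic cartilage, had none, although a peak of score 19 assigned to Nt5dc1 lay 8.6 kb away. Col7a1, Col8a2 and the multiplexin genes Col15a1 and Col18a1 had none. The closest peaks were 54.2, 84.5, 40.3 and 80.9 kb from these 4 genes, and the Col15a1 and Col18a1 neighbours were assigned to Tgfbr1 (score 35) and Pcbp3 (score 81).

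Collagen peaks lay mostly in introns and away from promoters. Inside collagen genes were 40 of the 52, of which 38 were intronic, 10 of them in a first intron, and 2 lay in a first exon (Col4a1 and Col23a1). Of the 12 outside, 9 were over 1 kb upstream, 6 of these at fibrillar genes, 2 were at promoters and 1 was downstream. Within 1 kb of a TSS were 6 (11.5%), against 25.7% of all peaks. From the gene's annotated 5′ end, 43 of the 52 peaks were over 10 kb away. The intronic count and this distance count have no counterpart over all peaks here. Of all 9165 peaks, 4931 were centred in a protein-coding gene, and the counting rule takes in any peak centred in a gene. Of all peaks inside collagen genes, 26 of 40 (65.0%) were nearer the 5′ end than the 3′ end, against 67.5% in all genes, and of distal ones 22 of 36 (61.1%), against 50.2%.

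Forkhead sequences were present in the central 200 bp of 30 of the 52 collagen peaks (57.7%, Wilson 95% interval 44.2 to 70.1), against 40.8% of all peaks and 37.3% of the other peaks counted for protein-coding genes. A window of the same width 2 kb upstream of the centre held one in 19.2% of collagen peaks and 18.2% of all peaks. Over the 46 collagen peaks more than 1 kb from a TSS the share was 63.0% (48.6 to 75.5), and over all 6808 such peaks it was 51.5%. At promoters it was 1 of 6, that of Col13a1, against 9.89% of all promoter peaks. By class the counts were 11 of 23 fibrillar (47.8%), 2 of 4 basement membrane, 5 of 6 FACIT and 12 of 19 other peaks (63.2%). A match is a run of letters and does not show which bases Foxf2 touched.

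GTAAACA was found in more distal collagen peaks than any of the other 3 sequences. It was present in 15 of 46 (32.6%, 20.9 to 47.0), against 18.9% of all distal peaks, and in 2.17% of the upstream windows. ATAAACA was present in 26.1%, close to the 25.5% of all distal peaks, and ATAAATA in 10.9%, against 10.8%. GTAAATA went the other way, in 1 peak (2.17%), against 7.71% of all distal peaks. As a control of base composition, the 4 sequences read backwards were present in 19.6%, against 24.0%; ATAAATA reads the same backwards and counts in both sets. Of sites of other factors, SOX (AACAAAG or AACAATG) was present in 10.9% against 13.0%, RUNX (TGTGGTT) in 1 peak (2.17%, that of Col11a1) against 6.32%, and TEAD (GGAATG) in 13.0% against 11.7%. A SOX match can overlap a forkhead match that ends in AACA, and such overlaps were kept.

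**Figure D4:**
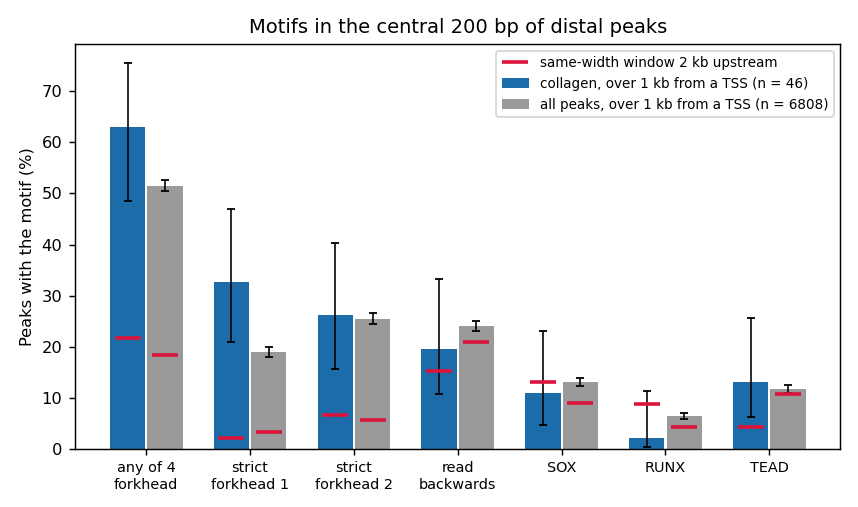
Percent of distal peaks with each motif in the central 200 bp, for 46 collagen peaks (blue) and all 6808 (grey), with Wilson 95% intervals; red dashes give the window 2 kb upstream. Strict forkhead 1 is GTAAACA, strict forkhead 2 is ATAAACA, and the collagen bar for GTAAACA (32.6%) is above that for all peaks (18.9%). ATAAATA and GTAAATA have no bars of their own.

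The median score was higher with a match than without one in both sets. It was 32.5 with and 20 without a match among collagen peaks, and 30 and 23 among all peaks. Of distal collagen peaks above the list's median score, 18 of 23 (78.3%) had a match in the central 200 bp, against 63.3% of all such peaks. At or below the median it was 11 of 23 (47.8%), against 40.9%. Over the whole peak, 41 of 52 collagen peaks (78.8%) had a match, against 64.3% of all, and 11 had none.

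Few of the forkhead sequences in collagen genes were in peaks. The gene bodies held 6050 matches, 11.7 per 10 kb, against 12.3 per 10 kb over all genes. Peaks covered 56 of them (0.926%), against 0.417% over all genes. For GTAAACA the counts were 18 of 778 (2.31%), against 0.886%. By class, peaks covered 3.17% of GTAAACA matches in fibrillar genes, 1.21% in basement membrane, 1.23% in FACIT and 3.05% in other collagen genes. Col1a1 shows how the 2 counts can part: its gene body held 4 forkhead matches and no GTAAACA. Its upstream peak also held 4 forkhead matches, and the 2 in its central 200 bp were GTAAACA.

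Genes that make, shape, bind or degrade collagen had peaks in 21 of 53 cases (39.6%), against 23.9% of all protein-coding genes. The groups held 3 to 17 genes each, and their shares were not tested against that value or compared at like gene length. Among enzymes and chaperones of chain modification and folding, 8 of 17 had one. The highest was Plod2, the lysyl hydroxylase that modifies collagen telopeptides, with a score of 142, 137 ChIP and 9 input tags and 2 forkhead matches, 37.7 kb from its start. Leprel1, a prolyl 3-hydroxylase, followed with 61, and Serpinh1, the collagen chaperone HSP47, had a promoter peak of 31. Receptors had 4 of 8, led by Itga11, a subunit of a fibrillar collagen receptor, with a score of 74, and Ddr2, a collagen-binding kinase, with 44. Itga1 and Itga2 had 1 peak each, of score 17, at 115.7 and 54.2 kb from a start. Cross-linking enzymes had 2 of 5, Loxl2 (46) and Loxl4 (39), and Lox had none. Propeptide cleavage had 3 of 8, with scores of 20 to 24. Fibril-binding proteins had 2 of 6, Fmod (35, with 127 ChIP and 7 input tags) and Bgn (27), and breakdown 2 of 6, Mmp2 (59, at its promoter) and Mmp14 (38). No secretion gene had one, of 3.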

How the data were processed

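Alignment was to mm9, and Bowtie 1.0.0, SAMtools 0.1.19 and HOMER were used, per the submitters' processing notes, with HOMER's version not given in the sources used here. HOMER findPeaks, per the file headers, compared the single ChIP library with the single input library in histone style, which joins neighbouring 500 bp peaks into wider regions. The header also records a fragment length of 112 bp, no more than 1 tag per bp, a minimum peak distance of 1000 bp and a tag threshold of 17. A 10-fold excess was required over input and over the surrounding 10000 bp, with a Poisson p-value over input of 0.0001, per the file headers.

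The deposited signal columns gave ChIP tags scaled to 10000000 tags or to the input depth, and input tags, with 0.5 in place of 0. Multiplied back, ChIP tags lay within 0.134 of whole numbers (tolerance 0.15). The deposited score, fold ratio and p-value are the authors' own. The p-value was not used further, and neither the clonal fold column nor the input's own file was used here.

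Coordinates are 1-based on NCBIM37, the assembly of mm9, with GENCODE vM1 genes outside the mitochondrial genome. Each peak was represented by its centre. Sequences were read from that genome. Motifs were searched on both strands. A fold carries an exact 95% binomial interval on its ChIP and input tags, and shares of peaks carry Wilson 95% intervals. All cover counting error only, since there was 1 ChIP library and no replicate. Python 3.11.15, numpy 2.4.6, pandas 2.3.3, scipy 1.17.1 and matplotlib 3.10.9 were used, and the counting code was tested on simulated data.

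Members, classes, pathway list and motifs were chosen with earlier results of these data known. Full values were given for the highest-scoring peak of up to 4 genes per class and always for Col1a1, Col1a2, Col2a1, Col3a1, Col5a2, Col4a1, Col4a2, Col4a3, Col9a1, Col11a1 and Col12a1 where they had a peak. Sequences were printed for up to 2 highest-scoring peaks per class with a forkhead match and 1 promoter peak, and the Col1a2 window was added after its values were seen. Of 54 pathway genes listed, 53 matched an annotated symbol; Mia3 did not. Alternatives were the rule that ties peaks to genes, its distance limit, score, fold and tag filters, the class of multiplexins, and the motif and its window.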

Additional observations from a re-analysis of the deposited data

How the results depend on the processing

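Of 70 alternatives, 49 gave values within 1.5 times the main count, or for the share of peaks with a forkhead sequence within its interval, and 21 did not. Tying peaks to genes by gene body or by nearest start alone, or with a limit of 10 or 1000 kb, kept between 24 and 26 of the 26 collagen genes. By class it kept all 10 fibrillar, 2 or 3 basement membrane, all 4 FACIT and between 7 and 9 other genes. The share of all genes ran from 16.1% to 25.9% under these rules. With multiplexins moved to the basement membrane class, 3 of 8 genes of that class (37.5%) and 9 of 15 of the other class (60.0%) had a peak. With the highest-scoring 920 peaks alone, 8 collagen genes had a peak (2.89% of all genes did): 3 fibrillar, 1 basement membrane, 0 FACIT and 4 other. With the 930 peaks of most ChIP tags, an alternative chosen after seeing the data, the counts were 8 (2.99% of all genes), 2, 1, 1 and 4. With peaks of at least 15-fold they were 9 (10.4% of all genes), 4, 0, 1 and 4. Each of these filters removes most peaks by construction. The number of collagen peaks fell to 26 above or at the median score and 10 at 15-fold or more. The share with a forkhead sequence was 73.1% at or above the median score (48.9% of all such peaks), 28.8% for GTAAACA alone (15.3% of all peaks), 30.8% in the central 100 bp (23.9%) and 78.8% over the whole peak (64.3%). Of the 52 peaks, 16 had at most 20 ChIP tags, and 1 ChIP library gives no measure of how many would be called again. No paired analysis was possible because there was 1 ChIP library and no replicate.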
